A study of Mus musculus with 29 samples.

Results

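Late recovery from pharmacologically induced heart failure was compared with mid recovery in mouse hearts by RNA sequencing. The comparison holds 10 of the 29 labelled samples of the series. The late group was the 5 libraries of Recovery week 19, and the mid group was the 3 libraries of Recovery week 11 and the 2 of Recovery week 13, all chosen by the week in their column names. The column names and the sample labels count from the end of the 5-week induction, and there the same groups are weeks 14, 6 and 8 of recovery. The weeks given here are those of the whole experiment.

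All 10 hearts came from male C57BL6 mice, 3 months old at the start, which had been through the same induction. They drank water with 0.3 mg/ml L-NAME, which blocks the synthesis of nitric oxide, and 1% NaCl for 5 weeks, and from 1 week after its start an osmotic pump that lasted 28 days gave angiotensin II at 0.7 mg/kg/day. Normal water was then returned, the pump ran out, and the mice were observed without further treatment. Age therefore differs between the groups by the same weeks as recovery does, and the 2 cannot be told apart in this comparison. The 5 libraries of Control week 19, age-matched mice without the protocol, and the libraries of HF week 5 and Recovery weeks 7 and 9 are given as values beside the results. The labels name the tissue as whole heart and as whole ventricle, and the methods name the frozen apical portion. No label ties a column to an animal, cohort or day, so the p values measure the spread between these libraries, and the library numbers are only the order of the columns.

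Pressure overload and neurohormonal stress bring the ventricle into a state in which cardiomyocytes make natriuretic peptides and fetal sarcomere isoforms, fibroblasts deposit collagen, and transcripts of ion channels and calcium-handling proteins are lowered. Removal of the load reverses much of this, a process called reverse remodelling. New collagen is folded in the endoplasmic reticulum by prolyl hydroxylases and a dedicated chaperone, and cytosolic chaperones of the heat shock family keep the contractile proteins folded. Immune cells resident in the heart, mainly macrophages, present antigen and answer to interferon. Genes of natriuretic peptides and fetal isoforms, matrix, ion channels, calcium handling, chaperones and immune cells were followed as lists from weeks 11 and 13 to week 19.

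The scale of the values was looked at first. The deposited values are in FPKM, that is sequenced fragments scaled to transcript length and library size. The 10 highest genes held 30.9% to 37.4% of the FPKM of each mid-recovery library and 15.9% to 17.4% of each week 19 library. This gap was known when the groups were chosen and is given without a test. It came from genes listed above 0 in every mid-recovery library and at 0 in every week 19 library. There were 3 of them. Myh6, the main myosin heavy chain of the adult mouse ventricle, was listed at 180964 to 316195 FPKM in mid recovery, where it alone held 16.8% to 23.7% of the FPKM. Mb, which encodes myoglobin, was listed at 19279 to 24942 FPKM and the transcript AK163440 at 12523 to 16976 FPKM. All 3 were also listed at 0 in every Control week 19 library, and Myh6 was at 0 in the HF week 5 libraries as well. Genes that every ventricle uses were thus listed at 0, and no change was taken from these zeros.

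With 28 such genes set aside, that is genes listed at 0 in some of the libraries although the median over the libraries above 0 reached 5 FPKM, 12526 genes remained whose mean reached 0.5 FPKM, and these were tested. Over these the 10 highest genes held 16.0% to 18.1% in mid recovery and 15.9% to 17.4% at week 19, which the setting aside of those genes brings about. Their summed FPKM was 748542 to 972942 in mid recovery and 617061 to 1010300 at week 19 (exact permutation test, p = 0.27), and their median log2 fold change was -0.01. The other ventricular genes among the highest were present in both groups: Myl2, the ventricular regulatory light chain, was at 29087 to 42002 FPKM in mid recovery and 22538 to 40594 FPKM at week 19, and Tnni3, cardiac troponin I, at 9631 to 14406 and 7279.6 to 13429.9 FPKM. The labelled tissue was thus seen in its ventricular markers in all 10 libraries. The number of reads is not in the values, and the low values put the relative depth of the libraries at 0.934 to 1.052 in mid recovery and 0.820 to 1.27 at week 19.

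**Figure D1:**
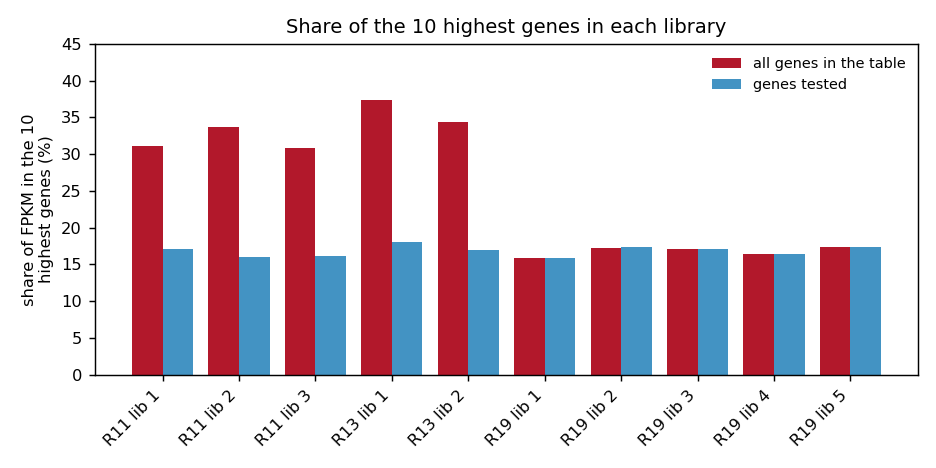
Share of the summed FPKM held by the 10 highest genes (vertical axis, percent) in each of the 10 libraries; R11, R13 and R19 are Recovery weeks 11, 13 and 19. Over all genes the mid-recovery bars stand at 30.9% to 37.4% and the week 19 bars at 15.9% to 17.4%, while over the genes tested all bars lie between 15.9% and 18.1%.

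The week 19 libraries were not alike. The first principal component of the 10 libraries held 43.9% of the variance of log2(FPKM + 0.5). Week 19 libraries 1 to 4 scored 39.0, 10.3, 16.1 and 23.8 on it, whereas week 19 library 5 scored -26.6, beyond all 5 mid-recovery libraries, which lay between -24.4 and 6.55. Library 5 correlated with the mid-recovery libraries at 0.983 to 0.988 and with the other week 19 libraries at 0.964 to 0.980 across genes, and it had the lowest relative depth of the 10 libraries, 0.820, and the highest summed FPKM of the genes tested, 1010300. The component went with that sum: week 19 library 1, at the other end, had the lowest sum, 617061. When the libraries of Control week 19 were placed on the same component, their libraries 1 to 4 scored 12.7 to 20.5 and their library 5 scored -7.68. Recovery week 7, an earlier stage than mid recovery, scored 14.8 and 17.6. The scores therefore did not follow the order of the weeks. Results are given below with all 10 libraries and, where it matters, without week 19 library 5. That library was singled out after its values were seen, so the calls made without it are not independent evidence of a difference between the weeks.

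**Figure D2:**
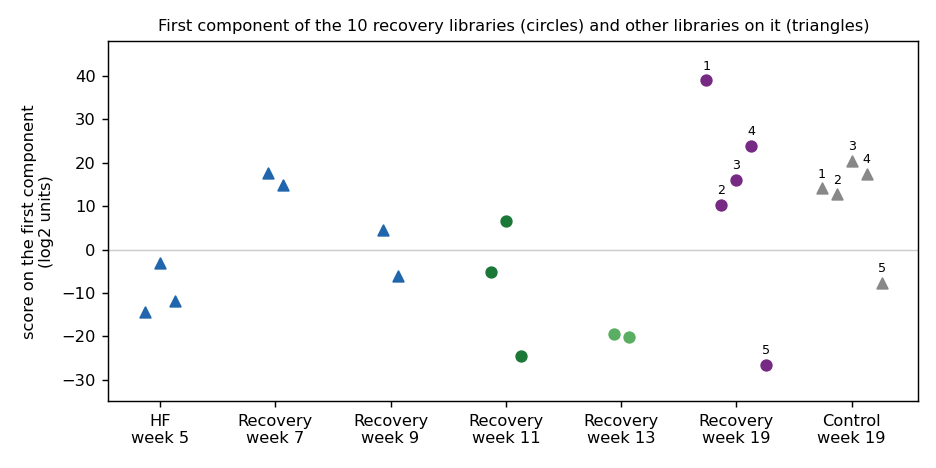
Score of each library (points) on the first principal component of the 10 recovery libraries (vertical axis, log2 units), with HF week 5, Recovery weeks 7 and 9 and Control week 19 placed on it. Numbers are library numbers; library 5 scored -26.6 at Recovery week 19 and -7.68 at Control week 19, below the other 4 libraries of its group.

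No gene differed between late and mid recovery at an adjusted p under 0.05 in the limma fit of all 10 libraries (0 of 12526, 0.0%). The lowest adjusted p was 0.0738, that of Cd200. At an unadjusted p under 0.05, 1028 genes were higher at week 19 (8.21%) and 919 lower (7.34%), together 15.5% of the genes tested. The week 19 and mid-recovery libraries did not overlap in 282 genes (2.25%), of which 164 were higher (1.31%) and 118 lower (0.942%). Without week 19 library 5 the same fit called 678 genes higher (5.41%) and 648 lower (5.17%), together 10.6%. Of these 1326 genes, 947 were past the unadjusted p in the same direction with all 10 libraries. In 1199 of them the value of library 5 lay nearer to the mean of mid recovery than to the mean of the other 4 week 19 libraries. The 1326 genes were chosen on the other libraries, and the share over all genes was not counted. The 1199 therefore cannot be read as a trait of library 5. Leaving out any other single library gave at most 1 call. When the summed FPKM of the genes tested was entered as a covariate, 4 genes were called (0.0319%): Serpinh1 and AK140265 higher, Cd200 and Rbm3 lower. Differences are therefore given by their values and unadjusted p, and none of them passed the adjusted p with all 10 libraries unless stated. The scale matters for the balance of directions: with each library rescaled to its FPKM without the 10 highest genes, the median log2 fold change of all genes was 0.16, and 1707 genes were higher and 283 lower at the unadjusted p. Medians of gene lists under this scaling, given below, stand against that 0.16.

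Cd200 encodes a membrane glycoprotein of endothelial and immune cells that restrains macrophages through its receptor. In whole tissue, fewer cells of a type and less of a transcript in each cell cannot be told apart, here or for the cell types named later. Cd200 was at 66.9, 57.4 and 113 FPKM in the week 11 libraries, 141 and 120.3 in the week 13 libraries and 30.01, 36.4, 37.3, 30.9 and 41.7 in the week 19 libraries. Every week 19 library was below every mid-recovery library, library 5 included. Cd200 thus had a log2 fold change of -1.42 ± 0.17 (SE; unadjusted p = 5.89e-06, adjusted p = 0.0738). Over the 27 alternatives of the processing the adjusted p lay between 0.00299 and 0.323. Its level was 154 to 218 FPKM in HF week 5, 39.05 to 71.2 FPKM in Recovery week 7, 103 to 121 FPKM in Recovery week 9 and 35.2 to 65.3 FPKM in Control week 19, and the recovery and control libraries of week 19 overlapped.

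Rbm3 and Cirbp encode RNA-binding proteins that are best known for being induced by mild cold. Rbm3 was at 80.1, 66.7 and 84.4 FPKM in the week 11 libraries, 96.04 and 99.98 in the week 13 libraries and 45.96, 55.4, 49.9, 45.8 and 60.6 in the week 19 libraries, again without overlap, with a log2 fold change of -0.72 ± 0.10 (SE; unadjusted p = 2.79e-05, adjusted p = 0.108, 0.008 with the covariate). Cirbp, chosen after its values were seen, was at 39.5 to 67.3 FPKM in mid recovery and 28.8 to 39.8 FPKM at week 19, a log2 fold change of -0.53 ± 0.11 (unadjusted p = 0.000542). The groups overlapped only between the lowest mid-recovery value and the highest week 19 value.

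Among genes whose mean reached 5 FPKM, with an unadjusted p under 0.05 and no overlap, 77 were higher and 69 lower at week 19. The 12 with the largest difference in each direction were taken. The lower ones, besides Cd200 and Rbm3, were led by AK198984 (log2 fold change -0.97 ± 0.26), Slc25a33, a mitochondrial carrier of pyrimidine nucleotides (-0.74 ± 0.13), Hyi, a hydroxypyruvate isomerase (-0.69 ± 0.13), and Marcksl1, a substrate of protein kinase C (-0.68 ± 0.14). They also held Tsc22d3, the glucocorticoid-induced leucine zipper (-0.63 ± 0.15), Tim9b (-0.64 ± 0.24), AK005538 (-0.63 ± 0.11), Fcrls, a scavenger receptor of macrophages (-0.62 ± 0.15), 2810055G20Rik (-0.59 ± 0.12) and Ppp1r14a, an inhibitor of myosin phosphatase in smooth muscle (-0.57 ± 0.10). Slc25a33 was at 34.5, 29.1 and 24.7 FPKM in the week 11 libraries, 24.4 and 25.02 in the week 13 libraries and 12.1, 19.9, 16.7, 16.1 and 16.98 in the week 19 libraries. Its week 19 values all lay below 20 FPKM and its mid-recovery values all above 24 FPKM.

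The higher ones were led by Rap1gap, which inactivates the small GTPase Rap1 (0.86 ± 0.16), Bcl3, a nuclear member of the I-kappa-B family (0.84 ± 0.14), Nkiras2, an inhibitor of NF-kappa-B that binds I-kappa-B (0.66 ± 0.10), and the chaperones Hsph1 (0.66 ± 0.16) and Dnaja1 (0.61 ± 0.17). The collagen prolyl hydroxylase subunit P4ha1 (0.61 ± 0.09), the stereocilia and axon scaffold protein Whrn (0.60 ± 0.21), Sdf2l1 of the endoplasmic reticulum (0.59 ± 0.13), the collagen chaperone Serpinh1 (0.55 ± 0.10), the E2F partner Tfdp1 (0.52 ± 0.10), the aldose mutarotase Galm (0.51 ± 0.10) and the kinase Map2k1 (0.49 ± 0.15) followed. Bcl3 was at 3.42 to 4.003 FPKM in mid recovery, 7.12 to 8.104 FPKM in week 19 libraries 1 to 4 and 4.64 FPKM in library 5. For Nkiras2 the values were 5.098 to 6.72 FPKM, 8.84 to 10.4 FPKM and 7.86 FPKM. In both genes library 5 was above all mid-recovery libraries but the lowest of its group. These 24 genes were taken because they differed, so their differences describe the rule and are not a further result.

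**Figure D3:**
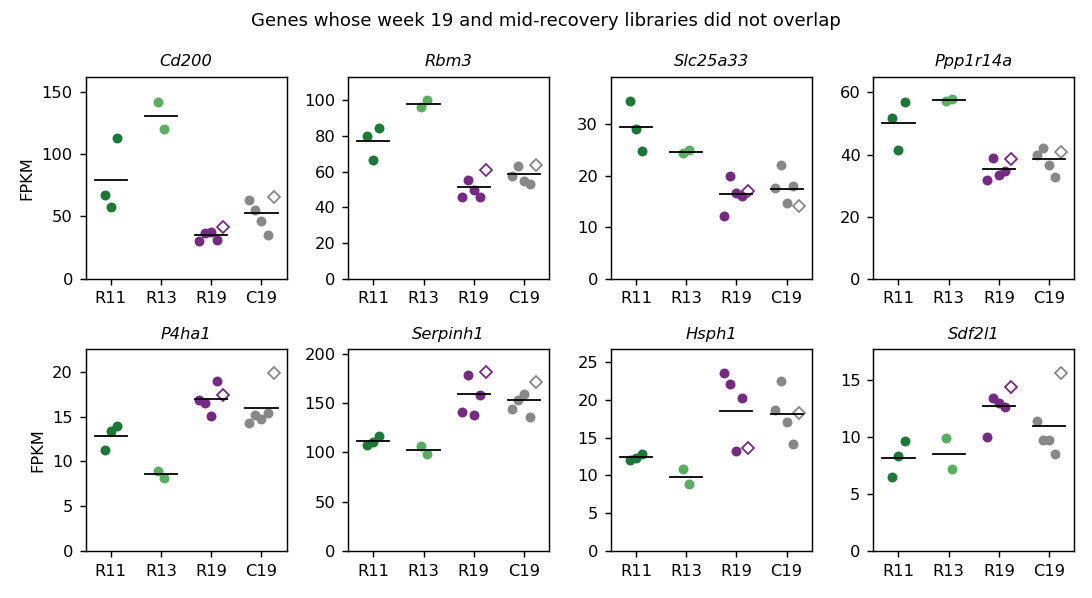
FPKM (vertical axes, from 0) of 8 genes in the libraries (points) of Recovery weeks 11, 13 and 19 and Control week 19 (R11, R13, R19, C19), with the mean of each group as a line and library 5 of both week 19 groups as open diamonds. In every panel all R19 points lie on one side of all R11 and R13 points, as for Cd200 with 30.01 to 41.7 FPKM against 57.4 to 141 FPKM.

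Heat shock genes and other cytosolic and mitochondrial chaperones were followed as a list of 25 genes, all tested. At the unadjusted p 8 were higher at week 19 and none lower (32% of the list, against 8.21% of all genes higher), and 19 of the 25 had a log2 fold change above 0, with a median of 0.14 where that of all genes was -0.01. Scaled without the 10 highest genes the median was 0.32, where that of all genes was 0.16. None passed the adjusted p with 10 libraries, 3 did without library 5 (12%, against 5.41% of all genes), and 11 were higher at the unadjusted p with the covariate (7.11% of all genes). Hsph1, a nucleotide exchange factor of Hsp70, was at 12.1, 12.3 and 12.9 FPKM in the week 11 libraries, 10.9 and 8.81 in the week 13 libraries and 23.5, 22.2, 13.3, 20.3 and 13.7 in the week 19 libraries. Dnaja1, an Hsp40 co-chaperone, was at 14.3, 13.2 and 14.5 FPKM in the week 11 libraries, 13.96 and 11.5 in the week 13 libraries and 27.6, 27.2, 14.9, 21.7 and 16.1 in the week 19 libraries. In both genes the week 19 libraries lay above the mid-recovery libraries, though week 19 libraries 3 and 5 only barely so. Hsp90ab1, the constitutive Hsp90, was also higher without overlap, at 476 to 562 FPKM against 569 to 694 FPKM (log2 fold change 0.25 ± 0.10, unadjusted p = 0.0249).

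The inducible Hsp70 genes varied most. Hspa1a was at 3.52, 2.98 and 3.81 FPKM in the week 11 libraries, 3.35 and 2.01 in the week 13 libraries and 20.1, 57.99, 2.37, 8.31 and 4.98 in the week 19 libraries. Library 2 at 57.99 FPKM carried the mean, library 3 was within the range of mid recovery, and the log2 fold change was 1.63 ± 0.66 (unadjusted p = 0.0322). Hspa1b, a near-identical copy next to it whose reads the counting may have split with Hspa1a, gave the same order within week 19, with 2.32 to 3.57 FPKM in mid recovery and 2.41 to 60.2 FPKM at week 19. In Control week 19 Hspa1a spanned 3.58 to 38.6 FPKM and in Recovery week 7 4.16 to 16.3 FPKM. The untreated controls thus also spread far beyond the range of mid recovery. Hspa8, the constitutive Hsp70, was at 735 to 976 FPKM and 892 to 1131 FPKM (log2 fold change 0.25 ± 0.12, unadjusted p = 0.0519).

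Heat shock factor 1 binds promoters at inverted repeats of nGAAn. The promoter windows of RefSeq (build GRCm38.p6, 250 bases before to 50 after each gene's start, 32851 windows) were searched on both strands for GAANNTTCNNGAA, which 0.603% of all windows hold. Of the 20 list genes with a window, 4 hold it: Chordc1, Hspd1, Hspe1 and Hsph1. The windows of the 2 of them that were past the unadjusted p at week 19 are shown with the matches in capitals, Hsph1 from chr5:149636287-149636586 on the minus strand and Chordc1 from chr9:18292017-18292316 on the plus strand.

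Hsph1: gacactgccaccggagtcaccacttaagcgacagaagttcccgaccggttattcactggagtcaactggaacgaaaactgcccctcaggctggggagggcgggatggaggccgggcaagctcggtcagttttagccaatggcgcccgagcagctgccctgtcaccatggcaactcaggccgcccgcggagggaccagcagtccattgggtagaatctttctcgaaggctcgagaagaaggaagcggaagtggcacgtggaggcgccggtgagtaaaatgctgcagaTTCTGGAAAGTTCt

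Chordc1: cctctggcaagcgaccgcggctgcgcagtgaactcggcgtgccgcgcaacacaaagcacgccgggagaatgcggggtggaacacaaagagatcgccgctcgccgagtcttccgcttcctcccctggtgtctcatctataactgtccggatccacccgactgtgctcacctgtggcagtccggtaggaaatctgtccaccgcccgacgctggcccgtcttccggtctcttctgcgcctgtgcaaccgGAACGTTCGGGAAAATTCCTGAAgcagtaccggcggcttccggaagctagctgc

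The Hsph1 window holds 1 match at its end, and that of Chordc1 holds 3 overlapping matches that form one run. Chordc1 encodes a co-chaperone of Hsp90 and was at 9.42 to 12.5 FPKM in mid recovery and 12.5 to 15.8 FPKM at week 19 (log2 fold change 0.36 ± 0.09, unadjusted p = 0.00168). A match of letters is a description of the sequence and no measurement of binding.

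Genes of protein folding and stress in the endoplasmic reticulum formed a list of 20, all tested. As many as 8 were higher at the unadjusted p and none lower (40% of the list, against 8.21% of all genes higher), the median log2 fold change was 0.16, and in 5 the week 19 libraries were all above mid recovery (25%, against 1.31% of all genes). Scaled without the 10 highest genes the median was 0.33, where that of all genes was 0.16. Without library 5 the fit called 3 of the 20 higher (15%, against 5.41% of all genes). Pdia4, a protein disulphide isomerase, was at 7.59, 8.05 and 9.06 FPKM in the week 11 libraries, 7.45 and 7.33 in the week 13 libraries and 9.43, 10.4, 9.94, 10.5 and 10.7 in the week 19 libraries. Its log2 fold change was 0.35 ± 0.08 (unadjusted p = 0.000727), and library 5 had the highest value of all. Sdf2l1, which works with the chaperone BiP, was at 6.53, 8.31 and 9.65 FPKM in the week 11 libraries, 9.89 and 7.21 in the week 13 libraries and 9.98, 13.5, 13.005, 12.6 and 14.4 in the week 19 libraries. Again library 5 was highest. Hspa5, which encodes BiP itself, was at 108 to 128 FPKM in mid recovery and 132 to 152 FPKM at week 19 (log2 fold change 0.25 ± 0.08, unadjusted p = 0.014). Hyou1 had a log2 fold change of 0.39 ± 0.10 and the transcription factor Xbp1 one of 0.23 ± 0.09 (unadjusted p = 0.00269 and 0.0258), and for both the groups overlapped. Ddit3, the proapoptotic factor CHOP, was at 37.7 to 46.98 FPKM and 28.8 to 43.9 FPKM with a log2 fold change of -0.11 ± 0.12 (unadjusted p = 0.356). In the median of this list libraries 2 to 5 of week 19 lay above all mid-recovery libraries and library 1 within them. In that of the chaperones libraries 2 and 5 were highest, libraries 1 and 4 just above mid recovery and library 3 within it.

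A few genes whose products mature collagen were higher at week 19. They belong to no list: Serpinh1 and P4ha1 are among the 24 genes taken because they differed. Serpinh1, the collagen-specific chaperone Hsp47, was at 107, 111 and 117 FPKM in the week 11 libraries, 107 and 98.7 in the week 13 libraries and 141, 178, 138, 158 and 182 in the week 19 libraries. No week 19 library overlapped mid recovery, the log2 fold change was 0.55 ± 0.10 (unadjusted p = 0.000175, adjusted p = 0.125), and the adjusted p with the covariate was 0.008. P4ha1, the catalytic subunit of prolyl 4-hydroxylase, was at 11.3, 13.4 and 14.02 FPKM in the week 11 libraries, 8.98 and 8.11 in the week 13 libraries and 16.9, 16.6, 15.1, 18.97 and 17.4 in the week 19 libraries. It too was higher in all week 19 libraries, by 0.61 ± 0.09 (unadjusted p = 2.89e-05, adjusted p = 0.108). Its partner gene P4ha2, chosen after its values were seen, was at 14.5 to 24.3 FPKM and 23.998 to 29.8 FPKM (log2 fold change 0.46 ± 0.09, unadjusted p = 0.000272). Both genes were higher in each week 11 library than in either week 13 library.

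Of the fibrillar collagens Col3a1 and Col1a2 were lower at the unadjusted p and Col1a1 did not pass. Col3a1 was at 31.4, 36.2 and 42.5 FPKM in the week 11 libraries, 34.8 and 40.1 in the week 13 libraries and 23.8, 28.7, 26.2, 19.8 and 32.4 in the week 19 libraries. The highest week 19 value was that of library 5, which alone overlapped mid recovery, and the log2 fold change was -0.50 ± 0.14 (unadjusted p = 0.00353; adjusted p = 0.0257 without library 5). Col1a2 gave -0.35 ± 0.14 (unadjusted p = 0.0316) and Col1a1 -0.17 ± 0.12 (unadjusted p = 0.176). Over the 37 tested genes of the extracellular matrix list 3 were higher and 6 lower at the unadjusted p (8.11% and 16.2% of the list, against 8.21% and 7.34% of all genes). The median log2 fold change was -0.22, and -0.044 when the libraries were scaled without the 10 highest genes, where that of all genes was 0.16. Without library 5, 4 were higher and 18 lower at the unadjusted p, where 15.3% and 16.7% of all genes were. One of the higher ones was a collagen chain, Col6a3, at 0.525 to 1.87 FPKM in mid recovery and 0.812 to 2.25 FPKM at week 19, where library 5 was lowest (0.57 ± 0.23, unadjusted p = 0.033; 0.75 ± 0.19 and adjusted p = 0.0386 without library 5). Postn, periostin, a marker of activated fibroblasts, was at 5.68, 10.4 and 16.3 FPKM in the week 11 libraries, 6.21 and 6.403 in the week 13 libraries and 4.78, 4.12, 4.44, 3.93 and 7.66 in the week 19 libraries. Its week 11 values spanned almost the whole range, and library 5 lay among mid recovery while the other 4 libraries of week 19 were below it. Periostin differed by -0.72 ± 0.25 on the log2 scale (unadjusted p = 0.015) with all libraries and by -0.87 ± 0.23 (adjusted p = 0.0404) without library 5. Lum, the small proteoglycan lumican, was at 24.6 to 47.3 FPKM and 16.96 to 30.5 FPKM (log2 fold change -0.54 ± 0.19, unadjusted p = 0.0154). Timp1, an inhibitor of matrix metalloproteinases, was at 4.48 to 5.38 FPKM in week 19 libraries 1 to 4, 22.8 FPKM in library 5 and 6.999 to 23.9 FPKM in mid recovery.

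Of 12 fibroblast markers, all tested, 1 was higher and 5 lower at the unadjusted p (8.33% and 41.7%, against 8.21% and 7.34% of all genes). Col3a1, Col1a2 and Lum are in this list and in that of the matrix and are counted in both. The list had a median log2 fold change of -0.36, which was -0.179 scaled without the 10 highest genes, where that of all genes was 0.16. Mfap5, a microfibril protein, was at 29.4 to 73.8 FPKM in mid recovery, 16.2 to 30.01 FPKM in week 19 libraries 1 to 4 and 61.8 FPKM in library 5. The defining markers Pdgfra and Tcf21, a receptor and a transcription factor of resident fibroblasts, had log2 fold changes of -0.16 ± 0.12 and 0.16 ± 0.13 (unadjusted p = 0.237 and 0.264).

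The study followed genes of endothelial to mesenchymal transition, the process by which endothelial cells take on fibroblast traits. A list of 14 genes of this process was used here. Most of them are named in the study's text, and it is not the study's own list. Of these 13 were tested, and 3 were higher and 3 lower at the unadjusted p (23.1% each, against 8.21% and 7.34% of all genes). The median log2 fold change was -0.11. It was 0.05 when the libraries were scaled without the 10 highest genes, where that of all genes was 0.16. Ctgf, a matricellular growth factor induced by TGF-beta, was lowest relative to mid recovery: it was at 44.8, 46.3 and 55.3 FPKM in the week 11 libraries, 24.3 and 25.9 in the week 13 libraries and 21.3, 31.6, 15.9, 16.3 and 24.3 in the week 19 libraries. Week 13 lay within the range of week 19 and week 11 above it. The log2 fold change of -0.81 ± 0.17 (unadjusted p = 0.000769) was made of -1.18 ± 0.20 against week 11 and -0.24 ± 0.23 against week 13. S100a4, a marker of mesenchymal cells, was at 16.8 to 42.6 FPKM and 16.7 to 32.4 FPKM (-0.48 ± 0.21, unadjusted p = 0.0418). It gave -0.22 ± 0.24 against week 11 (unadjusted p = 0.377) and -0.87 ± 0.27 against week 13. Twist2, a mesenchymal transcription factor, gave -0.36 ± 0.13 (unadjusted p = 0.0228), with -0.47 ± 0.16 against week 11 and -0.18 ± 0.18 against week 13.

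Higher at week 19 in this list were Snai1, the transcription factor Snail, at 2.023 to 4.83 FPKM against 3.48 to 5.15 FPKM (0.46 ± 0.18, unadjusted p = 0.0307), Cdh5, the endothelial cadherin, at 35.02 to 40.3 FPKM against 39.6 to 52.4 FPKM (0.26 ± 0.09, unadjusted p = 0.0133), and Smurf2, a ubiquitin ligase of TGF-beta receptors (0.21 ± 0.09, unadjusted p = 0.0395). Snai1 and Smurf2 rest more on week 13. Against week 11 they gave 0.26 ± 0.21 and 0.09 ± 0.10 (unadjusted p = 0.247 and 0.399), and against week 13 0.75 ± 0.24 and 0.38 ± 0.12. Cdh5 gave 0.26 against either week. The others did not pass: Snai2 had a log2 fold change of -0.11 ± 0.18, Twist1 of -0.12 ± 0.14, Bmp4 of -0.12 ± 0.13, Actn1 of -0.22 ± 0.13, Lims1 of -0.02 ± 0.08, Klf4 of 0.23 ± 0.30 and Thbs1 of 0.10 ± 0.48. Thbs1 was at 1.22 to 13.5 FPKM at week 19, with all but library 2 below 3 FPKM. With both a mesenchymal factor (Snai1) and an endothelial marker (Cdh5) above and a mesenchymal marker (S100a4) below mid recovery, the members had no common direction.

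Among natriuretic peptides and fetal genes Nppb and Ctgf were lower at week 19 at the unadjusted p, and week 11 spread widely. Nppb, which encodes the B-type natriuretic peptide released by a stretched ventricle, was at 668, 827 and 1317 FPKM in the week 11 libraries, 551 and 574 in the week 13 libraries and 201, 250.3, 232, 149 and 889 in the week 19 libraries. Libraries 1 to 4 of week 19 lay below all mid-recovery libraries, at 149 to 250.3 FPKM, and library 5 lay within them. The difference on the log2 scale was -1.44 ± 0.41 (unadjusted p = 0.00518) with all libraries and -1.87 ± 0.20 (adjusted p = 0.00746) without library 5. Control week 19 held the same pattern, with its libraries 1 to 4 at 232 to 358 FPKM and its library 5 at 619 FPKM, and HF week 5 was at 1155 to 1664 FPKM. Recovery week 7 was at 167 to 260.1 FPKM, as low as week 19 libraries 1 to 4, and Recovery week 9 at 797 to 1179 FPKM. Nppa, the atrial natriuretic peptide, was at 354, 1188 and 1421 FPKM in the week 11 libraries, 418 and 468 in the week 13 libraries and 170.1, 477, 343, 199 and 746 in the week 19 libraries (-0.96 ± 0.46, unadjusted p = 0.0604). Ankrd1, a stretch-responsive repressor in the sarcomere, gave -0.46 ± 0.26, Myh7, the fetal myosin heavy chain, -0.65 ± 0.49 and Acta1, skeletal actin, -0.38 ± 0.33 (unadjusted p = 0.111, 0.21 and 0.27). For these 3 genes 1 library of week 11, library 3, held the highest value of the 10. Over the 15 genes of the list none was higher and Nppb and Ctgf were lower at the unadjusted p (13.3%, against 7.34% of all genes). Without library 5, 4 were lower, against 16.7% of all genes. The median log2 fold change was -0.15. It was 0.0089 when the libraries were scaled without the 10 highest genes, where that of all genes was 0.16.

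Of 18 ion channel genes tested, 6 were higher at the unadjusted p and none lower (33.3%, against 8.21% of all genes higher), and the median log2 fold change was 0.26 (0.45 scaled without the 10 highest genes, against 0.16 for all genes). Without library 5 these were 11, against 15.3% of all genes, of which 5 were called (27.8%, against 5.41% of all genes). Scn4b, an auxiliary subunit of the cardiac sodium channel, was at 5.41, 5.89 and 4.08 FPKM in the week 11 libraries, 7.904 and 6.71 in the week 13 libraries and 11.2, 11.03, 13.8, 10.4 and 7.88 in the week 19 libraries. The 4 other week 19 libraries lay above every mid-recovery library, whereas library 5 at 7.88 FPKM was just below the highest of them. The log2 fold change was 0.81 ± 0.14 (unadjusted p = 0.000168). Kcnj2, which carries the inward rectifier current, was higher by 0.59 ± 0.20, Kcnj3, a subunit of the acetylcholine-activated channel, by 0.78 ± 0.31, and Cacna1h, a T-type calcium channel, by 0.60 ± 0.18 (unadjusted p = 0.0116, 0.029 and 0.00622). In HF week 5 Scn4b was at 0.346 to 2.096 FPKM, in Recovery week 7 at 12.7 to 14.9 FPKM and in Recovery week 9 at 5.67 to 6.71 FPKM. Control week 19 libraries 1 to 4 were at 12.1 to 14.9 FPKM and library 5, within the range of mid recovery, at 5.17 FPKM. Week 7 thus lay above mid recovery, as week 19 libraries 1 to 4 did.

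Genes of calcium handling and cell junctions were mixed. Of 18 tested, 3 were higher and 1 lower at the unadjusted p (16.7% and 5.56%, against 8.21% and 7.34% of all genes). The median difference on the log2 scale was 0.03, which was -0.0024 under median centring, where that of all genes was -0.036. Jph2, junctophilin, which holds the sarcoplasmic reticulum to the T-tubule, was at 65.1, 89.5 and 38.2 FPKM in the week 11 libraries, 56.7 and 43.9 in the week 13 libraries and 112, 98.3, 94.2, 117 and 59.2 in the week 19 libraries. Week 19 library 5 alone overlapped mid recovery. Jph2 differed by 0.73 ± 0.24 (unadjusted p = 0.0108), and 0.90 ± 0.21 without library 5 (adjusted p = 0.0301). Cacna1c, the L-type calcium channel, was at 9.99 to 17.8 FPKM and 10.6 to 30.9 FPKM (0.64 ± 0.25, unadjusted p = 0.0273), and Ryr2, the release channel, at 17.8 to 25.8 FPKM and 21.4 to 35.5 FPKM (0.42 ± 0.16, unadjusted p = 0.0239). The calcium pump Atp2a2 and its inhibitor Pln differed little, with log2 fold changes of 0.14 ± 0.11 and -0.09 ± 0.11 (unadjusted p = 0.241 and 0.456).

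Transcription factors and cofactors of the cardiomyocyte and its metabolism were higher in 6 of 22 genes at the unadjusted p (27.3%, against 8.21% of all genes) and lower in none, and the median difference on the log2 scale was 0.19 (0.36 scaled without the 10 highest genes, against 0.16 for all genes). Without library 5 these were 10, against 15.3% of all genes. Tbx20, a T-box factor needed for adult heart function, was at 1.44, 1.94 and 1.196 FPKM in the week 11 libraries, 1.55 and 1.39 in the week 13 libraries and 4.03, 2.89, 2.46, 2.98 and 1.84 in the week 19 libraries. Library 5 again was the one week 19 library within mid recovery. The log2 fold change was 0.72 ± 0.17 (unadjusted p = 0.00165). Mef2d, a factor of stress-dependent remodelling, was at 11.4 to 17.9 FPKM and 14.2 to 26.2 FPKM (0.53 ± 0.16, unadjusted p = 0.00711), and Gata4 gave 0.18 ± 0.08 (unadjusted p = 0.0379). Ppargc1a, the coactivator of mitochondrial biogenesis, was at 4.72 to 20.5 FPKM and 5.01 to 12.4 FPKM (-0.10 ± 0.28, unadjusted p = 0.724). Of 16 muscle ubiquitin ligases and autophagy genes, another list, 2 were higher and 1 lower at the unadjusted p (12.5% and 6.25%, against 8.21% and 7.34% of all genes), and 8 had a log2 fold change above 0 and 8 below. Among them Fbxo40, a ligase that targets the insulin receptor substrate, was higher by 0.78 ± 0.27 (unadjusted p = 0.0167), and lay at 5.42 FPKM in library 5 against 10.5 to 14.1 FPKM in the other week 19 libraries.

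**Figure D4:**
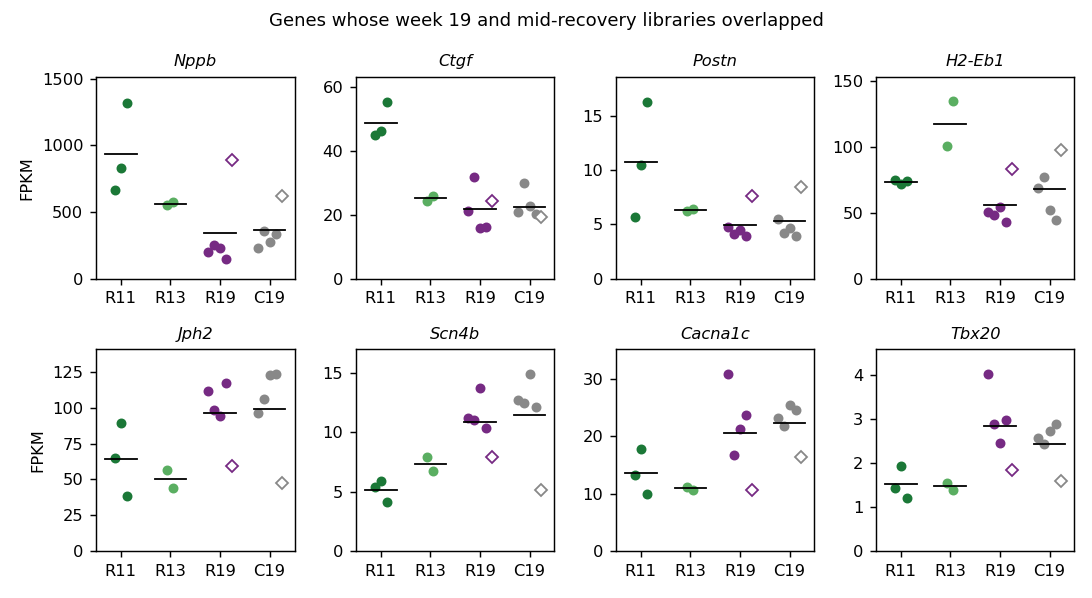
FPKM (vertical axes, from 0) of 8 genes in the libraries (points) of Recovery weeks 11, 13 and 19 and Control week 19 (R11, R13, R19, C19), with the mean of each group as a line and library 5 of both week 19 groups as open diamonds. In Nppb, Jph2 and Scn4b the open diamonds of both groups lie away from the other 4 libraries of their group and near the mid-recovery points.

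Of 28 interferon-induced genes tested, 13 were lower and 1 higher at the unadjusted p (46.4% and 3.57%, against 7.34% and 8.21% of all genes), and 25 had a log2 fold change below 0. The median was -0.27, and -0.0975 when the libraries were scaled without the 10 highest genes, where that of all genes was 0.16. None passed the adjusted p with all 10 libraries, and 9 were called lower and none higher without library 5 (32.1%, against 5.17% of all genes). Ifit3, an antiviral protein, was at 5.73, 6.103 and 7.99 FPKM in the week 11 libraries, 5.05 and 8.84 in the week 13 libraries and 3.42, 3.28, 4.91, 4.07 and 5.23 in the week 19 libraries. Only week 13 library 1 and week 19 library 5 overlapped, and the log2 fold change was -0.62 ± 0.17 (unadjusted p = 0.00423). Ifit1, a cap-binding relative, was at 1.78 to 2.93 FPKM and 1.09 to 1.75 FPKM with no overlap (-0.46 ± 0.14, unadjusted p = 0.00777). Isg15, a ubiquitin-like modifier, gave -0.42 ± 0.15, the nucleic acid sensor Zbp1 -0.62 ± 0.19, the guanylate-binding protein Gbp3 -0.55 ± 0.14 and the transcription factor Irf7 -0.39 ± 0.12 (unadjusted p = 0.0174, 0.00721, 0.0023 and 0.00625). Gbp3 and Irf7 differed by -0.24 ± 0.16 and -0.23 ± 0.13 against week 11 (unadjusted p = 0.158 and 0.108) and by -1.01 ± 0.18 and -0.62 ± 0.15 against week 13, whereas Ifit3 gave -0.61 ± 0.20 and -0.64 ± 0.23. Irf1, the factor of the interferon-gamma branch, was the one higher, at 11.9 to 14.6 FPKM against 14.4 to 19.2 FPKM (0.24 ± 0.10, unadjusted p = 0.0343).

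The interferon-stimulated response element, a short promoter sequence of interferon-induced genes, was searched as GAAANNGAAA on both strands of the same windows, where 3.44% of all hold it. Among the 23 list genes with a window 11 hold it: Bst2, Gbp2, Gbp3, Ifit1, Ifit3, Igtp, Irgm1, Isg15, Oas1a, Rsad2 and Stat2. Those of Ifit3 (chr19:34583279-34583578, plus strand) and Isg15 (chr4:156200769-156201068, minus strand) are shown with the matches in capitals, since they hold 2 and 3 matches.

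Ifit3: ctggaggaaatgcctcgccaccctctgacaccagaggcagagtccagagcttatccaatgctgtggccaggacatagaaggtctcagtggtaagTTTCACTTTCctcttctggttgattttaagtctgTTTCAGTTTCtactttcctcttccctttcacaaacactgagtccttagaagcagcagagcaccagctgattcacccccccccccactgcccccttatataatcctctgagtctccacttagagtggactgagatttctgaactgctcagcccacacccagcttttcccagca

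Isg15: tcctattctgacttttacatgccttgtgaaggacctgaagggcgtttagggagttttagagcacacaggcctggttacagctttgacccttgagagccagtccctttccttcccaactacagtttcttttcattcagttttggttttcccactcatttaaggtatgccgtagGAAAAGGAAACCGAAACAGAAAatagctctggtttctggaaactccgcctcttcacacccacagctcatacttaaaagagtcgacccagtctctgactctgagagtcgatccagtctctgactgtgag

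In Ifit3 the 2 matches read on the opposite strand, as TTTCNNTTTC, and lie apart, and in Isg15 the 3 matches overlap in one run. The list was chosen as interferon-induced genes, so that the share with the element describes the list.

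Antigen presentation had the same direction. Of the 10 genes of the major histocompatibility complex tested, all had a log2 fold change below 0 and 4 were lower at the unadjusted p (40%, against 7.34% of all genes). The median was -0.38. It was -0.1995 scaled without the 10 highest genes, where that of all genes was 0.16, and -0.2146 with the covariate. Without library 5, 9 were lower at the unadjusted p, against 16.7% of all genes, and 6 of them called (60%, against 5.17% of all genes). H2-Eb1, a class II chain, was at 74.7, 71.7 and 74.1 FPKM in the week 11 libraries, 101 and 134 in the week 13 libraries and 50.7, 48.2, 54.5, 43.2 and 83.2 in the week 19 libraries. Week 13 was highest, and libraries 1 to 4 of week 19 lay below all mid-recovery libraries. The log2 fold change was -0.69 ± 0.16 (unadjusted p = 0.00142; -0.84 ± 0.10 and adjusted p = 0.00793 without library 5). H2-Aa gave -0.67 ± 0.19 and Cd74, the invariant chain, -0.61 ± 0.18 (unadjusted p = 0.00481 and 0.00681). These values rest more on week 13: H2-Aa gave -0.37 ± 0.22 against week 11 and -1.11 ± 0.25 against week 13, and Cd74 -0.36 ± 0.21 and -0.98 ± 0.24 (unadjusted p against week 11 = 0.117 and 0.115). H2-Ab1, the partner chain of H2-Aa, gave -0.28 ± 0.15 (unadjusted p = 0.0839), with -0.70 ± 0.20 against week 13 and -0.01 ± 0.17 against week 11. The class I chain H2-K1 was at 210.3 to 299 FPKM and 159.8 to 264 FPKM (-0.35 ± 0.14, unadjusted p = 0.0315). Psmb8, the immunoproteasome subunit that trims peptides for class I, had a log2 fold change of -0.55 ± 0.17 (unadjusted p = 0.00785).

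Of 12 macrophage markers 3 were lower at the unadjusted p and none higher (25%, against 7.34% of all genes lower). The median difference on the log2 scale was -0.33. It was -0.1457 scaled without the 10 highest genes, where that of all genes was 0.16, and -0.1212 with the covariate. C1qa, a complement chain made by resident macrophages, was at 158 to 234 FPKM and 99.96 to 215 FPKM (-0.45 ± 0.20, unadjusted p = 0.0417), and the mannose receptor Mrc1 at 3.41 to 5.42 FPKM and 2.399 to 3.495 FPKM (-0.46 ± 0.14, unadjusted p = 0.00662). The defining markers Cd68 and Csf1r gave -0.38 ± 0.23 and -0.33 ± 0.16 (unadjusted p = 0.123 and 0.0673). Their summed FPKM over the list was 463.7 to 694.7 in mid recovery and 308.6 to 619.2 at week 19. Aif1, an actin-binding protein of macrophages that was chosen after its values were seen, was at 6.32, 9.78 and 10.5 FPKM in the week 11 libraries, 13.01 and 21.4 in the week 13 libraries and 3.67, 5.53, 4.24, 4.92 and 7.41 in the week 19 libraries, a log2 fold change of -1.10 ± 0.20 (unadjusted p = 0.000249). Week 13 library 2, with 21.4 FPKM, also held the highest H2-Eb1, Cd74 and Csf1r of the 10 libraries. Without that library the median log2 fold change was -0.25 for the major histocompatibility complex and -0.27 for the macrophage markers.

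Complement genes were lower in 3 of 12 (25%, against 7.34% of all genes), and in 7 without library 5, where 16.7% of all genes were lower. Their median was -0.33, which was -0.1691 scaled without the 10 highest genes, where that of all genes was 0.16. Among the 3 were C1qa, also a macrophage marker here, and Serping1, the C1 inhibitor (-0.46 ± 0.20, unadjusted p = 0.0471), while C3 gave -0.12 ± 0.17 (unadjusted p = 0.488). Lymphocyte markers were near the floor: of 6 tested the B-cell receptor chains Cd79a and Cd79b were lower at the unadjusted p (33.3%, against 7.34% of all genes), at 0.927 to 2.01 FPKM against 0.509 to 0.796 FPKM for Cd79b (-0.75 ± 0.16, unadjusted p = 0.000598), and Ptprc, common to all leukocytes, gave 0.11 ± 0.17 (unadjusted p = 0.513).

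Endothelial markers, 12 tested, were higher in 4 and lower in 1 at the unadjusted p (33.3% and 8.33%, against 8.21% and 7.34% of all genes). They had a median log2 fold change of 0.16, which was 0.35 scaled without the 10 highest genes, where that of all genes was 0.16. Flt1 and Kdr, the receptors of vascular endothelial growth factor, were at 8.95, 9.66 and 7.57 FPKM in the week 11 libraries, 5.86 and 7.27 in the week 13 libraries and 16.6, 11.1, 11.4, 15.2 and 7.49 in the week 19 libraries for Flt1 (0.59 ± 0.19, unadjusted p = 0.00969), and at 9.65 to 14.9 FPKM against 12.03 to 21.8 FPKM for Kdr (0.48 ± 0.17, unadjusted p = 0.0168). Library 5 lay within mid recovery for both. Emcn, a sialoprotein of capillaries and veins, was lower, at 28.4 to 40.7 FPKM against 24.7 to 36.1 FPKM (-0.30 ± 0.12, unadjusted p = 0.0282). Pecam1 gave 0.17 ± 0.09 (unadjusted p = 0.0746). The members thus did not share a direction. Of 12 smooth muscle and pericyte markers only Rgs5, of pericytes, was past the unadjusted p (8.33%, against 8.21% of all genes higher), at 15.6 to 24.6 FPKM and 14.4 to 44.4 FPKM (0.62 ± 0.27, unadjusted p = 0.0452); Myh11 and Acta2 gave 0.23 ± 0.27 and -0.10 ± 0.19 (unadjusted p = 0.408 and 0.616). The growth factor Bmp6, which endothelial cells make, was at 8.43 to 13.5 FPKM and 12.7 to 19.9 FPKM (0.61 ± 0.14, unadjusted p = 0.0015).

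**Figure D5:**
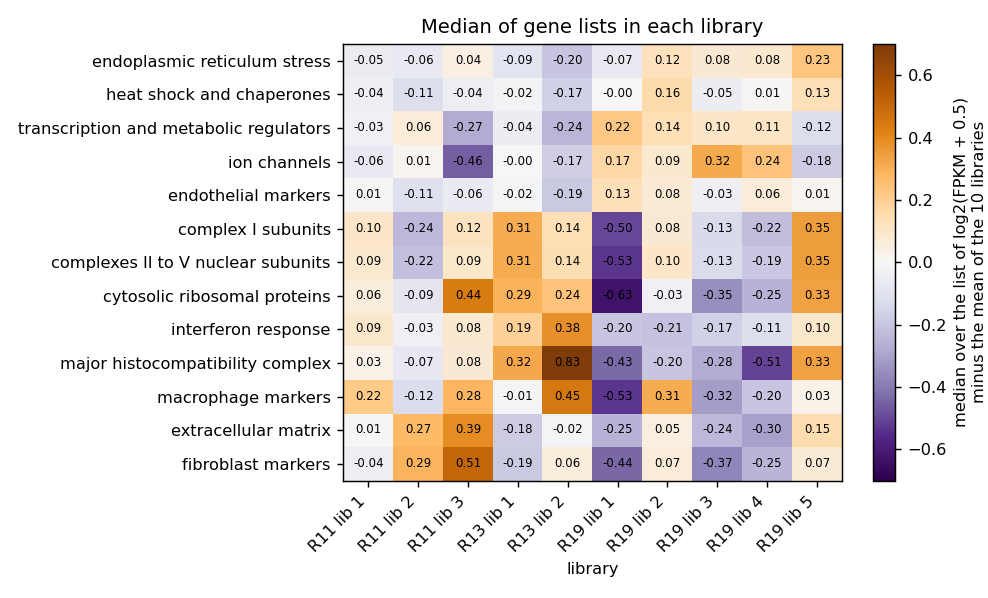
Median over the tested genes of each list (rows) of log2(FPKM + 0.5) minus the gene's mean over the 10 libraries, for each library (columns; R11, R13 and R19 are Recovery weeks 11, 13 and 19); orange is above and purple below the mean. Week 19 library 5 lies within mid recovery for ribosomal proteins (0.33) and the major histocompatibility complex (0.33). It lies above all mid-recovery libraries for the respiratory complexes (0.35), the endoplasmic reticulum list (0.23) and the chaperones (0.13).

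Genes of the translation machinery formed the largest list. All 77 ribosomal protein genes tested had a log2 fold change below 0, 26 were lower at the unadjusted p and none higher (33.8%, against 7.34% of all genes lower), and the median was -0.36. Without library 5, 71 were lower at the unadjusted p, against 16.7% of all genes, of which 29 were called, against 5.17% of all genes. Ribosomal proteins held 11.6% to 14.2% of the FPKM of the genes tested in mid recovery and 9.95% to 12.3% at week 19 (exact permutation test, unadjusted p = 0.0317). This share was not among the measures planned for that test, and the p is not adjusted for the several library measures tested. Their median stayed below 0 under each scaling: -0.17 without the 10 highest genes (all genes 0.16), -0.16 after quantile normalization, -0.30 with the trend on length and GC content removed, and -0.15 with the covariate. Week 19 library 1 was lowest and library 2 near the middle of the 10 libraries, while library 5 was above 4 of the 5 mid-recovery libraries.

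The respiratory chain was high and low in the same libraries. None of 36 complex I subunits and none of 39 nuclear subunits of complexes II to V passed the unadjusted p with all 10 libraries, whereas 13 and 9 were lower without library 5, where 16.7% of all genes were. Of these 1, Ndufa11 of complex I, was called (2.78% of complex I, against 5.17% of all genes). Their median log2 fold changes were -0.18 and -0.16. These were 0.01 and 0.03 scaled without the 10 highest genes, where that of all genes was 0.16, and 0.04 and 0.06 after quantile normalization. Fatty acid genes had a median of 0.09 with 1 of 27 past the unadjusted p (3.7%, against 8.21% of all genes higher), Acot2, a mitochondrial thioesterase, at 28.9 to 31.5 FPKM against 31.7 to 38.4 FPKM (0.19 ± 0.08, unadjusted p = 0.0283). Of the tricarboxylic acid cycle 0 of 14 and of glycolysis 0 of 20 passed, against 15.5% of all genes in either direction. Of 22 sarcomere genes Tnnt1, slow skeletal troponin T, was lower (-0.43 ± 0.14, unadjusted p = 0.0104) and none higher (4.55% of the list, against 7.34% of all genes lower), and the giant protein titin, Ttn, gave 0.11 ± 0.17 (unadjusted p = 0.534). Without library 5, 5 sarcomere genes were lower at the unadjusted p, against 16.7% of all genes. Of these Tnnt1 was called (4.55%, against 5.17% of all genes). Proteasome subunits were lower in 5 of 31 (16.1%, against 7.34% of all genes), and in 20 without library 5, against 16.7% of all genes. Their median was -0.19, which was -0.0075 when the libraries were scaled without the 10 highest genes, where that of all genes was 0.16.

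Of 9 atrial markers tested 1 was higher, Kcnj3, given above with the ion channels, and 3 lower at the unadjusted p (11.1% and 33.3%, against 8.21% and 7.34% of all genes), and 4 had a log2 fold change above 0 and 5 below. The lower ones were Myl7, Sln and Myl4. Myl7, the atrial light chain, was at 1.84, 1.97 and 2.59 FPKM in the week 11 libraries, 3.56 and 0.161 in the week 13 libraries and 0.424, 0, 0.5298, 0.794 and 0.213 in the week 19 libraries, and Sln, sarcolipin, at 0.1998 to 1.697 FPKM and 0 to 0.40002 FPKM. These levels are near the floor of the values in all 10 libraries, below 4 FPKM, against a ventricular Myl2 of 22538 to 40594 FPKM at week 19. Their fitted log2 fold changes, -1.35 ± 0.43 and -1.14 ± 0.33, depend on the pseudocount, and no more is read from them. Myl4, of atria and fetal ventricle, was at 3.82 to 8.17 FPKM and 2.26 to 5.43 FPKM (-0.59 ± 0.25, unadjusted p = 0.0376).

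The mid-recovery weeks themselves differed in a few genes. Week 13 against week 11 gave 4 calls at the adjusted p (0.0319% of the genes tested), of which 3 were lower and 1 higher. There were 0 with all 24 libraries in the fit and 8 without week 11 library 3. Eln, which encodes elastin, was at 27.3, 26.97 and 23.5 FPKM in the week 11 libraries, 6.65 and 7.204 in the week 13 libraries and 19.6, 14.7, 18.4, 18.6 and 18.5 in the week 19 libraries. Week 13 lay below week 19 and week 11 above it, with all groups apart, and the log2 fold change from week 11 to 13 was -1.83 ± 0.13 (SE; adjusted p = 0.000479). Against week 13, week 19 was higher by 1.31 ± 0.12 (adjusted p = 0.00585), and against week 11 it was lower, -0.52 ± 0.11 (adjusted p = 0.309), so that the pooled value of 0.21 ± 0.09 says little. Cdkn1a, the cell cycle inhibitor p21, was at 65.5, 55.3 and 59.5 FPKM in the week 11 libraries, 20.5 and 19.3 in the week 13 libraries and 32.9, 37.5, 34.6, 44.8 and 43.96 in the week 19 libraries, with -1.57 ± 0.15 between weeks 11 and 13 (adjusted p = 0.00344). Fkbp5, a glucocorticoid-induced co-chaperone, was at 29.4, 29.6 and 25.9 FPKM in the week 11 libraries, 8.099 and 9.54 in the week 13 libraries and 14.9, 18.4, 14.3, 18.98 and 10.98 in the week 19 libraries, with -1.63 ± 0.20 (adjusted p = 0.0233). Arhgap18, an inactivator of RhoA, was higher in week 13, by 1.22 ± 0.15 (adjusted p = 0.0233). In all 4 genes the week 19 values lay between those of weeks 11 and 13.

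Week 19 against week 13 gave 3 calls (0.024%), namely Eln and P4ha1 higher and Cd200 lower: P4ha1 by 0.95 ± 0.12 (adjusted p = 0.0282) and Cd200 by -1.88 ± 0.23 (adjusted p = 0.0282). Week 19 against week 11 gave 0 calls (0.0%) with 1156 genes at the unadjusted p (9.23%). Without week 19 library 5 the contrast with week 13 gave 891 calls. Leaving out a week 13 library leaves 1 library in that group, so those counts are not given. These contrasts share the week 19 libraries, and week 13 has only 2.

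Tsc22d3, which glucocorticoids induce as they do Fkbp5, was at 109.8, 142 and 132 FPKM in the week 11 libraries, 114 and 124 in the week 13 libraries and 72.5, 106, 59.6, 76.2 and 92.5 in the week 19 libraries and was lower at week 19 without overlap (-0.63 ± 0.15, unadjusted p = 0.00148). Zbtb16, a zinc finger factor, was at 7.76, 10.6 and 4.14 FPKM in the week 11 libraries, 1.26 and 1.45 in the week 13 libraries and 19.3, 9.98, 10.1, 14.1 and 4.23 in the week 19 libraries and was higher (1.34 ± 0.35, unadjusted p = 0.00301), with week 13 lowest, as in Fkbp5, and week 19 libraries 2, 3 and 5 within the range of week 11. Of 21 antioxidant genes 1 was higher and 2 lower at the unadjusted p (4.76% and 9.52%, against 8.21% and 7.34% of all genes). The median of -0.15 was 0.0391 scaled without the 10 highest genes, where that of all genes was 0.16. Without library 5, 2 were higher and 10 lower at the unadjusted p, against 15.3% and 16.7% of all genes. Of these, 2 and 3 were called (9.52% and 14.3%, against 5.41% and 5.17% of all genes). The gene higher with all 10 libraries, the heme oxygenase Hmox1, was at 14.04, 10.4 and 10.9 FPKM in the week 11 libraries, 7.13 and 8.81 in the week 13 libraries and 22.4, 43.1, 14.3, 31.2 and 10.1 in the week 19 libraries (1.05 ± 0.33, unadjusted p = 0.00875). Its level in week 19 libraries 1 to 4 was above every mid-recovery library and above Control week 19, which was at 8.18 to 10.1 FPKM, while HF week 5 spanned 4.71 to 29.02 FPKM. Of 27 immediate-early genes Socs3, an inhibitor of cytokine signalling, was higher (0.57 ± 0.14, unadjusted p = 0.00226) and the stress factor Atf3 lower (-0.76 ± 0.25, unadjusted p = 0.0113), and of 18 clock genes Bhlhe41 and Nr1d1, both repressors, were higher (0.63 ± 0.22 and 0.22 ± 0.08, unadjusted p = 0.0145 and 0.0219). These are 3.7% of the first list in each direction and 11.1% of the second, against 8.21% and 7.34% of all genes. The hour of death is not in the labels. Cell cycle genes were lower in 4 of 21 (19%, against 7.34% of all genes), and in 7 without library 5, against 16.7% of all genes. Their median was -0.17, which was -0.0136 when the libraries were scaled without the 10 highest genes, where that of all genes was 0.16. Among the 4 was cyclin A, Ccna2, at 1.47 to 2.33 FPKM against 0.778 to 1.64 FPKM (-0.54 ± 0.17, unadjusted p = 0.00768).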

How the data were processed

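Poly(A)-enriched RNA from mouse hearts had been sequenced from both ends. According to the methods and the submitters' processing notes, the authors aligned the reads with TopHat to the mouse genome mm9 and computed the deposited FPKM with Cuffdiff, 1 column per library for 29955 genes named by symbol. The gene annotation and the scaling between libraries are not given in the sources used here. Differences that arose in those steps, among them the genes listed at 0 in whole groups, are in the values. Weeks 11 and 13 list Myh6, Mb and AK163440 above 0 and week 19 does not, so that a difference in processing and a difference between weeks cannot be told apart for these genes. The week in a column's name gave its group, which placed 24 columns in 8 groups; 5 columns named for Control week 5 were not used, since only 4 samples carry that label. Column numbers were not tied to labelled samples.

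A gene was tested where its mean over the 10 libraries reached 0.5 FPKM, apart from the 28 set aside. Values were taken as log2(FPKM + 0.5), on which fold changes of low genes come out smaller, and a linear model was fitted in limma 3.58.1 under R 4.3.3 (eBayes with a trend, not robust, 7 residual degrees of freedom), with a mean for each week and the contrast of week 19 against the mean of the 5 mid-recovery libraries. Tests were two-sided, p values were adjusted by the Benjamini-Hochberg method across the genes tested, and ± is the standard error of the fit. The calculations were tested on simulated data. Library measures were compared by exact permutation in Python 3.11.15 with scipy 1.17.1; numpy 2.4.6, pandas 2.3.3 and matplotlib 3.10.9 were also used. Numbers of reads are not in the files and the depth is unknown, so errors reflect only how far libraries of a group differ.

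The groups and the gene lists were chosen with earlier results of these data known. Genes were to be named by an adjusted p under 0.05, no overlap of the groups and a mean of at least 5 FPKM, 12 in each direction, besides up to 3 called genes per list, 14 genes of endothelial to mesenchymal transition, most named in the study's text, defining cell type markers, genes set aside and the 10 highest genes. Because no gene passed, the unadjusted p took the place of the adjusted one after the values were seen, and genes beyond these, and those shown for a list, were chosen after their values were seen. List members are described by counts and medians without a set test. Promoter windows were read from RefSeq (GRCm38.p6), another build than mm9, by gene symbol, and no coordinates of the deposited values were used. Length and GC content for 93.84% of the genes tested came from GENCODE transcripts of GRCm38.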

Additional observations from a re-analysis of the deposited data

Results flagged for a closer look

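Over 166 values of this comparison screened in the 5 week 19 libraries, 15 (9.04%) had 1 library farther from the others than Dixon's 95% limit of 0.71 for 5 values. Chance flags about 1 in 20 of independent, normally distributed values. Many of the genes screened were chosen after their values were seen, and values of 1 library are not independent. No excess over chance is therefore read from the 9.04%. Library 5 was the one apart in 8 of them, library 2 in 4, library 1 in 2, library 3 in 1 and library 4 in 0. In library 5 the high values were Nppb at 888.8 FPKM, S100a4 at 32.4 FPKM, Postn at 7.66 FPKM, Timp1 at 22.8 FPKM, H2-Eb1 at 83.2 FPKM, H2-Aa at 118.0 FPKM and H2-K1 at 264.0 FPKM, and the low value was Bcl3 at 4.64 FPKM. All but Bcl3 lay within the range of mid recovery. The other values stood alone. Library 2 was high in Thbs1 (13.5 FPKM) and low in Eln (14.7 FPKM), Ifit1 (1.09 FPKM) and Axin2 (0.745 FPKM), library 1 was low in Tim9b (4.19 FPKM) and high in Ptprc (1.51 FPKM), and library 3 was high in Atp2a2 (1926 FPKM).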

How the results depend on the processing

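With all 10 libraries 0 genes were called higher and 0 lower, and 1028 and 919 passed the unadjusted p. Leaving out 1 library at a time gave 0 to 678 higher and 0 to 648 lower calls, and 635 to 1920 higher and 559 to 2096 lower at the unadjusted p; the upper ends of all 4 ranges came without week 19 library 5, and without any other library at most 1 gene was called. Calls higher and lower were 2 and 2 after quantile normalization, 1 and 1 scaled without the 10 highest genes, and 2 and 2 with the summed FPKM as covariate. Only lower calls appeared at a mean of at least 5 FPKM (1), without any filter for low genes (2), genes listed at 0 kept (4), upper quartile scaling (2) and the length and GC trend removed (1). Library weights estimated from the data, which gave library 5 the lowest weight of 0.255, led to 998 higher and 1022 lower calls (2163 and 2378 at the unadjusted p), and omitting week 19 libraries 1 and 5 to 31 and 50 (1552 lower at the unadjusted p). These last 2 alternatives and the covariate were chosen after seeing the data. At the unadjusted p a mean of at least 5 FPKM left 516 higher and 598 lower, with fewer genes tested, and scaling without the 10 highest genes gave 1707 and 283.

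Week 19 against week 11, 0 calls with all libraries, gave 2 without a filter, 1 at a mean of at least 5 FPKM, 4 with the zeros kept, 2 after quantile normalization, 5 with the covariate, 124 with library weights, 7 omitting libraries 1 and 5, and 0 to 80 leaving out 1 library. Week 19 against week 13, 3 calls, gave 12 with a pseudocount of 1, 6 without a filter, 10 and 18 at a mean of at least 1 and 5 FPKM, 13 with the zeros kept, 1 under median centring, 7 after quantile normalization, 5 with upper quartile scaling, 9 with length and GC removed, 1 without the variance trend, 10 with the covariate, 3072 with library weights, 82 omitting libraries 1 and 5, and 1 to 891 leaving out 1 library of week 11 or 19. Week 13 against week 11, 4 calls, gave 0 with all 24 libraries in the fit, 2 without the 10 highest genes, 10 with the covariate, 168 with library weights and 2 to 8 leaving out 1 library of week 11 or 19. The causes were not tested. Of the 140 genes named, the sign of Eln turned, to -0.078 and -0.051 without week 13 library 1 and library 2, within a range of -0.078 to 0.41 over the libraries left out; no other gene past the unadjusted p changed sign under any alternative. No paired analysis was possible because the columns carry no link to the numbered samples or to animals. Week 13 rests on 2 libraries, and no depth is known.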
